A study of Homo sapiens with 26 samples.

Results

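The genes described here are 40 genes of the hypoxia-inducible factor (HIF) pathway and of the hypoxia response outside glycolysis, taken by gene name from a fixed list out of 58735 genes in the count table. They are 7 genes of oxygen sensing and HIF control, 3 HIF subunits and 30 genes known as targets of hypoxia. These targets encode secreted and surface signals, collagen-modifying and protein-folding enzymes, carbonic anhydrases and mitochondrial proteins. Others encode regulators of chromatin and transcription and regulators of growth and metabolism. The rule itself uses no measured value, and each of the 40 had reads. The list was chosen with earlier results of these data known. Shares over all genes set beside the members are therefore a description and not an independent test. RNA was sequenced in 26 libraries from 16HBE cells, which are immortalized epithelial cells of the human bronchus. The CF cells were 16HBEge cells, a gene-edited derivative whose genotype is DeltaF508 CFTR, a deletion in the apical chloride and bicarbonate channel that causes cystic fibrosis. The WT cells were 16HBE14o- cells with WT CFTR. High glucose was 17.5 mM and normal glucose 5.5 mM. For CF cells there were 6 libraries in high and 6 in normal glucose, and for WT cells 5 in high and 6 in normal glucose, plus 3 in normal glucose marked as not polarized. Cells on Transwells, which are permeable supports, were kept in their medium for 7 days, and 2 Transwells were pooled per library. The labels give the same plating for the cells that were not polarized and do not say how their culture differed. Each genotype is represented by 1 line, so the CFTR genotype and other differences between the lines cannot be told apart. Nothing says that replicates were grown as separate cultures, and the p-values cover only the spread between these libraries, which may be technical.

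HIF is a transcription factor made of an oxygen-regulated alpha subunit, HIF1A or EPAS1 (HIF2A), and the stable partner ARNT. When oxygen is present, the prolyl hydroxylases EGLN1, EGLN2 and EGLN3 modify the alpha subunit, VHL then marks it for destruction, and the asparagine hydroxylase HIF1AN blocks its contact with coactivators. When oxygen is scarce the alpha subunit accumulates, enters the nucleus and binds short DNA elements next to its targets, among them EGLN1 and EGLN3, which are part of a feedback loop. The alpha subunits are controlled mostly as proteins, and the libraries measured messenger RNA, so they do not show how much HIF protein the cells held. In cultured airway epithelium, the layer of medium, the density of the cells and their own respiration set the oxygen at the cell surface. The labels give no oxygen value.

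The core of the element that HIF binds reads ACGTG or GCGTG, and promoters are shown for 4 members with ACGTG whose RNA was lower in CF cells in high glucose, so that the letters can be read beside the values that follow. Promoters of 300 bases, from 250 before to 50 after the annotated start, were matched for 34 of the 40 members in RefSeq's table on GRCh38.p14, with 45 entries because some genes have several starts. VEGFA, JMJD6, BNIP3L, NDRG1, FUT11 and VHL are named only. The sequences run 5′ to 3′ on the strand of the gene, and capitals mark ACGTG or GCGTG on either strand (CACGT or CACGC where the match lies on the other strand; neighbouring matches run together). They lie at chr4:185396591-185396890, plus strand (ANKRD37), chr10:131981874-131982173, minus strand (BNIP3), chr14:52695509-52695808, minus strand (ERO1A) and chr1:231422238-231422537, minus strand (EGLN1).
ANKRD37: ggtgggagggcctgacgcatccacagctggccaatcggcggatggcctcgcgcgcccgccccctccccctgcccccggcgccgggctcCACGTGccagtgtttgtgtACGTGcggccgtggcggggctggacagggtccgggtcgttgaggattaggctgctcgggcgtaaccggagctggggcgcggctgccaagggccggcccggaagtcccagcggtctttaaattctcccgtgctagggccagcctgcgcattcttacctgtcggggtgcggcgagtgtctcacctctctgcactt
BNIP3: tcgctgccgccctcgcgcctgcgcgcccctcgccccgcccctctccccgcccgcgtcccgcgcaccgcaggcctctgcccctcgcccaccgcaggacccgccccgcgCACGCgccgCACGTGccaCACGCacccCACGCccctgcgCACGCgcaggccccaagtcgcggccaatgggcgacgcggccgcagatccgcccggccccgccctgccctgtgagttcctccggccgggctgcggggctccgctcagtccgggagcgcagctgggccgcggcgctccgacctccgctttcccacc
ERO1A: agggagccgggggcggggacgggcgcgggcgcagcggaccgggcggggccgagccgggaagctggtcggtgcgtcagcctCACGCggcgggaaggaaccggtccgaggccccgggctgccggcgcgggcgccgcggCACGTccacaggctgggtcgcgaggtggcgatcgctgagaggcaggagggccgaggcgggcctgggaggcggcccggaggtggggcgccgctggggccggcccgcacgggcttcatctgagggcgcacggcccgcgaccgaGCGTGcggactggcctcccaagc
EGLN1: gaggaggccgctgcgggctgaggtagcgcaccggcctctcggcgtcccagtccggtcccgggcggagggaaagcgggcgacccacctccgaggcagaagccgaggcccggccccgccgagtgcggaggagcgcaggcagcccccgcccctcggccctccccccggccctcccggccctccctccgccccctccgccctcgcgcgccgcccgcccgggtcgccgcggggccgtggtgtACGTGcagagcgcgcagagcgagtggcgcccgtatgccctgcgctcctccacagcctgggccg

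In the ANKRD37 promoter ACGTG began 161 and 143 bases before the start, the first of them inside the palindrome CACGTG, which reads as a match on both strands. BNIP3 held the same palindrome, and 4 copies of GCGTG around it. ERO1A had 1 ACGTG on the strand opposite to the gene and EGLN1 had 1 on its own strand, 13 bases before the start. ACGTG on either strand was in 20 of the 45 entries (44.4%), against 7518 of 35116 promoters of the table (21.4%). GCGTG was in 27 of the 45 entries (60.0%), against 36.5% of the table. CACGTG, which contains ACGTG and is also read by other factors, was in 9 of the 45 entries (20%), against 7.26% of the table. Among the entries of members that were lower in CF cells in high glucose, 11 of 23 (47.8%) held ACGTG, and among the entries of the other members 9 of 22 (40.9%) did. GCGTG was in 17 of 23 (73.9%) and in 10 of 22 (45.5%) of these entries. Entries were counted and not genes. Windows of the same gene can overlap, as for KDM3A and INSIG2, so a single site can count in more than 1 entry. A match of these letters is a description of the window and does not show that HIF binds there.

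The libraries held between 14658319 and 20413839 counts. Epithelial markers were high throughout, with 11 of 11 at a group mean of at least 25.6 CPM (counts scaled to library size) and a summed level of 7379 to 9806 CPM per library. The immune markers PTPRC, CD68, CD3E and LYZ were at a summed 0 to 1.03 CPM. Of 4 endothelial markers, PECAM1 and VWF stayed below 1 CPM in each group mean while KDR and CDH5 were detected, and the summed level was 43.3 to 49.9 CPM in CF cells in high glucose, 32.5 to 64.2 in CF cells in normal glucose, 22.3 to 29.4 in WT cells in high glucose, 20 to 25.3 in WT cells in normal glucose and 44.8 to 48.8 in the cells that were not polarized. Of 5 fibroblast markers, DCN and COL3A1 were at or near 0, and the summed level, mostly COL1A1, was 16.3 to 31.1 CPM in CF cells, 27.5 to 44.3 in polarized WT cells and 13.8 to 14.9 in the cells that were not polarized. Whether these levels have a part in the results was not tested. In all 4 glucose groups the libraries numbered 4 to 6 stood apart from libraries 1 to 3. Deviations from the group mean were correlated between CF libraries in high glucose and CF libraries in normal glucose. The mean r was 0.29 for libraries of other numbers in the same set and -0.30 for libraries of the other set. Deviations within a group cancel out by construction, so the negative value follows from the positive ones and is not separate evidence of a split. The genes behind these values do not vary independently. In CF cells in high glucose, 17 of the 40 genes did not overlap between the sets, beside 46.7% of all genes tested. The sets did not overlap for 14 genes in CF cells in normal glucose, beside 40.9%, for 25 in WT cells in high glucose, beside 49.8%, and for 24 in WT cells in normal glucose, beside 34.4%. The labels give no reason for the split, so results are also given for each set of numbers alone. In bulk RNA, fewer cells that express a gene and less RNA of it per cell cannot be told apart.

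Levels across genes are compared in FPKM, which is per length. In polarized WT cells in normal glucose the members spanned from ERO1A, an oxidase of the endoplasmic reticulum that drives disulfide formation, at 210.0 ± 18.6 FPKM to the carbonic anhydrase CA12 at 0.103 ± 0.0469 FPKM (SD, n = 6 each). The ephrin EFNA1 (173 ± 25.6 FPKM) and the collagen prolyl hydroxylase P4HA1 (165 ± 40.1 FPKM) followed ERO1A, and the libraries of each neighbouring pair overlapped. Of the HIF subunits, EPAS1 was at 33.3 ± 4.55 FPKM, HIF1A at 19.0 ± 1.87 FPKM and ARNT at 8.75 ± 0.686 FPKM. Among the prolyl hydroxylases EGLN1 led with 14.6 ± 0.932 FPKM, EGLN3 had 4.00 ± 0.429 FPKM and EGLN2 had 1.42 ± 0.268 FPKM. EGLN2 shares 30.6% of its exon bases with RAB4B-EGLN2 on the same strand, which held 5 reads against 3739 for EGLN2. EFNA3 shares 44.7% of its exon bases with AL691442.1, also on the same strand, which held 0 reads against 8067. How reads in shared exons were counted is not given, so the levels of both genes, and EGLN2's rank, are uncertain. In the WT cells that were not polarized, HIF1A (38.9 ± 1.06 FPKM) and EPAS1 (37.0 ± 0.444 FPKM) were nearly level, while EGLN3 was at 0.117 ± 0.0242 FPKM (n = 3 each). CA9, CA12 and RORA were below 1 FPKM in every group mean.

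**Figure D1:**
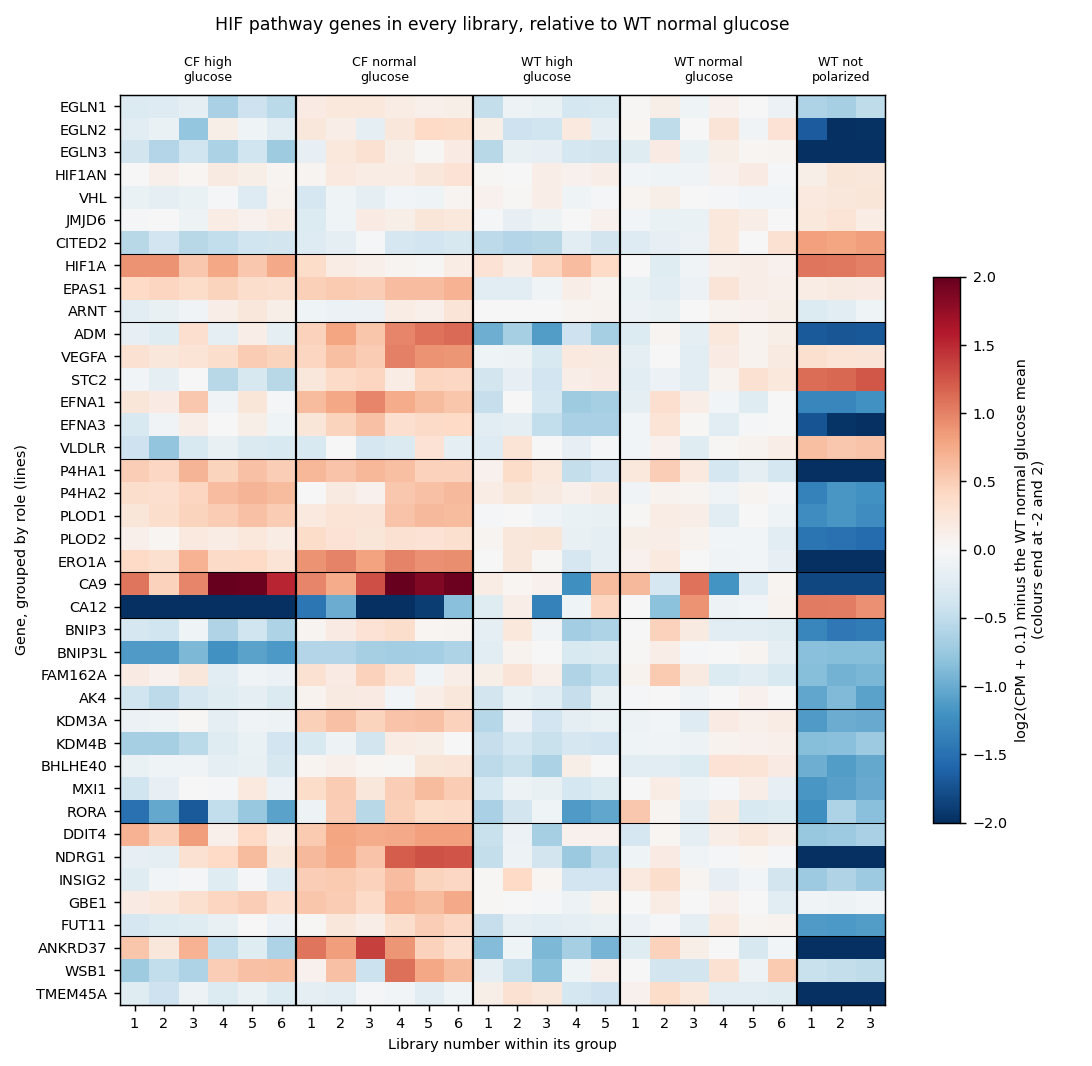
Each row is 1 of the 40 genes and each column 1 of the 26 libraries, and the colour is the log2 CPM relative to the mean of WT cells in normal glucose. The largest shift is in the 3 libraries of cells that were not polarized, where EGLN3 and TMEM45A are lower and STC2 and HIF1A are higher. In edgeR's fit EGLN3 and TMEM45A differ by 5.10 and 4.81 log2 units, which is beyond the end of the colour scale. Within the glucose groups most genes are lower in CF cells in high glucose than in CF cells in normal glucose.

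The first comparison asked how these genes respond to raised glucose in CF cells. In high glucose 20 of the 40 genes fell and 1, HIF1A itself, rose, while 8.41% of the 16338 genes tested were called in either direction (4.14% lower and 4.27% higher). The median log2 fold change of the 40 genes was -0.39, beside -3.61e-05 over all genes tested. Among the signals 5 of 6 fell, and among the chromatin and transcription regulators 4 of 5. With 4 of 5 regulators of growth and metabolism and 3 of 4 mitochondrial genes, these held most of the calls. Only ERO1A of the 5 collagen and folding enzymes fell. Of the 7 oxygen-sensing genes EGLN1 and EGLN3 fell. Calls are from edgeR's quasi-likelihood test with Benjamini-Hochberg adjustment over all genes, at an adjusted p under 0.05, and fold changes are given as log2 with SE.

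HIF1A, the alpha subunit best known for the acute hypoxic response, had 143, 167 and 183 CPM (lowest, median, highest) in CF cells in high glucose and 99.7, 107 and 127 CPM in CF cells in normal glucose. The groups did not overlap, and HIF1A rose by 0.59 ± 0.08 (adjusted p = 5.48e-05). EPAS1, the other alpha subunit, had 304, 319 and 333 CPM in high glucose and 340, 363 and 395 CPM in normal glucose. These did not overlap either, but the difference of -0.19 ± 0.08 did not pass (adjusted p = 0.139), and passed with library number as a block (adjusted p = 0.0212). ARNT overlapped fully, with a log2 difference of -0.02 ± 0.07. A gap between groups in 1 direction occurred in 2.35% of all genes for lower values and 2.33% for higher values, and in 17 and 1 of the 40 genes.

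The prolyl hydroxylase EGLN1 had 68.7, 84.5 and 94.2 CPM in CF cells in high glucose and 115, 120 and 124 CPM in CF cells in normal glucose. Every library in high glucose was below every library in normal glucose, and EGLN1 fell by 0.54 ± 0.07 (log2 fold change -0.54, adjusted p = 3.91e-05). EGLN3, the most inducible of the hydroxylases in hypoxia, had 18, 21 and 23 CPM in high glucose and 26.4, 32.7 and 36.7 CPM in normal glucose. Its groups also lay apart (log2 fold change -0.63 ± 0.09, adjusted p = 6.75e-05). EGLN2 overlapped, with 5.41, 8.25 and 10.1 CPM in high glucose and 8.09, 10.8 and 12.3 CPM in normal glucose, and its difference of -0.40 ± 0.15 had an adjusted p of 0.0972 (0.0105 with the block for library number). VHL and HIF1AN did not pass, at 0.00 ± 0.06 and -0.10 ± 0.05, nor did the JmjC oxygenase JMJD6 or CITED2, which competes with HIF for its coactivator (log2 -0.03 ± 0.08 and -0.21 ± 0.09, adjusted p = 0.903 and 0.165).

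Among the signals, ADM, which encodes the vasodilator adrenomedullin, had 66.7, 70.1 and 99.9 CPM in CF cells in high glucose and 109, 146 and 173 CPM in CF cells in normal glucose. The groups were apart, and ADM had the largest fall of the members above 5 CPM, at -0.89 ± 0.13 (adjusted p = 9.85e-05). STC2, a secreted stanniocalcin, had 45.5, 56.4 and 67.7 CPM in high glucose and 74.2, 89.0 and 90.8 CPM in normal glucose, again without overlap (log2 fold change -0.61 ± 0.12, adjusted p = 0.002). EFNA1 and EFNA3, ephrins that signal through Eph receptors, and VEGFA, the growth factor of blood vessels, fell by 0.53, 0.43 and 0.38 on the log2 scale. VEGFA's libraries overlapped, and its adjusted p of 0.0159 became 0.0501 without library 4 of CF cells in normal glucose. The lipoprotein receptor VLDLR did not pass (-0.25 ± 0.12, adjusted p = 0.241).

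NDRG1, a differentiation-linked gene strongly induced by hypoxia, had 646, 878 and 1128 CPM in CF cells in high glucose and 1082, 1470 and 1760 CPM in CF cells in normal glucose. The highest library in high glucose was above the lowest in normal glucose, and NDRG1 fell by 0.75 ± 0.14 (log2 fold change -0.75, adjusted p = 0.000903). INSIG2, which holds the sterol sensor complex in the endoplasmic reticulum, had 46.9, 51.0 and 55.6 CPM in high glucose and 75.3, 78.3 and 86.7 CPM in normal glucose, with a wide gap between the groups (-0.63 ± 0.11, adjusted p = 0.000639). The histone H3K9 demethylase KDM3A had 81.2, 87.5 and 95.1 CPM in high glucose and 127, 135 and 140 CPM in normal glucose. KDM3A's groups were apart as well (-0.61 ± 0.08, adjusted p = 1.21e-05). ANKRD37, an ankyrin-repeat gene whose promoter is shown above, had 8.48, 13.1 and 21.2 CPM in high glucose and 16.6, 23.7 and 34.0 CPM in normal glucose. Its libraries overlapped, and its fall of 0.77 ± 0.22 (log2 fold change -0.77, adjusted p = 0.031) did not pass without library 4, 5 or 6 of CF cells in high glucose or library 1 of CF cells in normal glucose (adjusted p = 0.0637, 0.0593, 0.0734 and 0.0536).

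The other members that fell were RORA, a nuclear receptor of the circadian clock that was below 5 CPM, at -1.30, the mitophagy receptors BNIP3 at -0.56 and BNIP3L at -0.46, the MYC antagonist MXI1 at -0.53, ERO1A at -0.51, the fucosyltransferase FUT11 at -0.46, the mitochondrial adenylate kinase AK4 at -0.45, the demethylase KDM4B at -0.35 and the glycogen branching enzyme GBE1 at -0.26. ERO1A had 1924, 2088 and 2582 CPM in high glucose and 2781, 3034 and 3180 CPM in normal glucose. It was the most abundant of these members, and its groups did not overlap. PNMA2, which lies opposite to BNIP3L and shares 7.66% of its exon bases, was also called lower (-0.33 ± 0.08, adjusted p = 0.00997). The strand setting of the counts is not given, so reads in the shared bases cannot be told apart. The collagen hydroxylases P4HA1, P4HA2, PLOD1 and PLOD2 were between -0.16 and 0.15, and P4HA1 for example had 672, 707 and 800 CPM in high glucose and 694, 756 and 796 CPM in normal glucose. Also not called were the mTORC1 inhibitor DDIT4 (-0.28 ± 0.13), the transcription factor BHLHE40 (-0.27 ± 0.12), WSB1, part of a ubiquitin ligase (-0.44 ± 0.26), FAM162A (-0.20 ± 0.15) and TMEM45A (-0.11 ± 0.11).

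**Figure D2:**
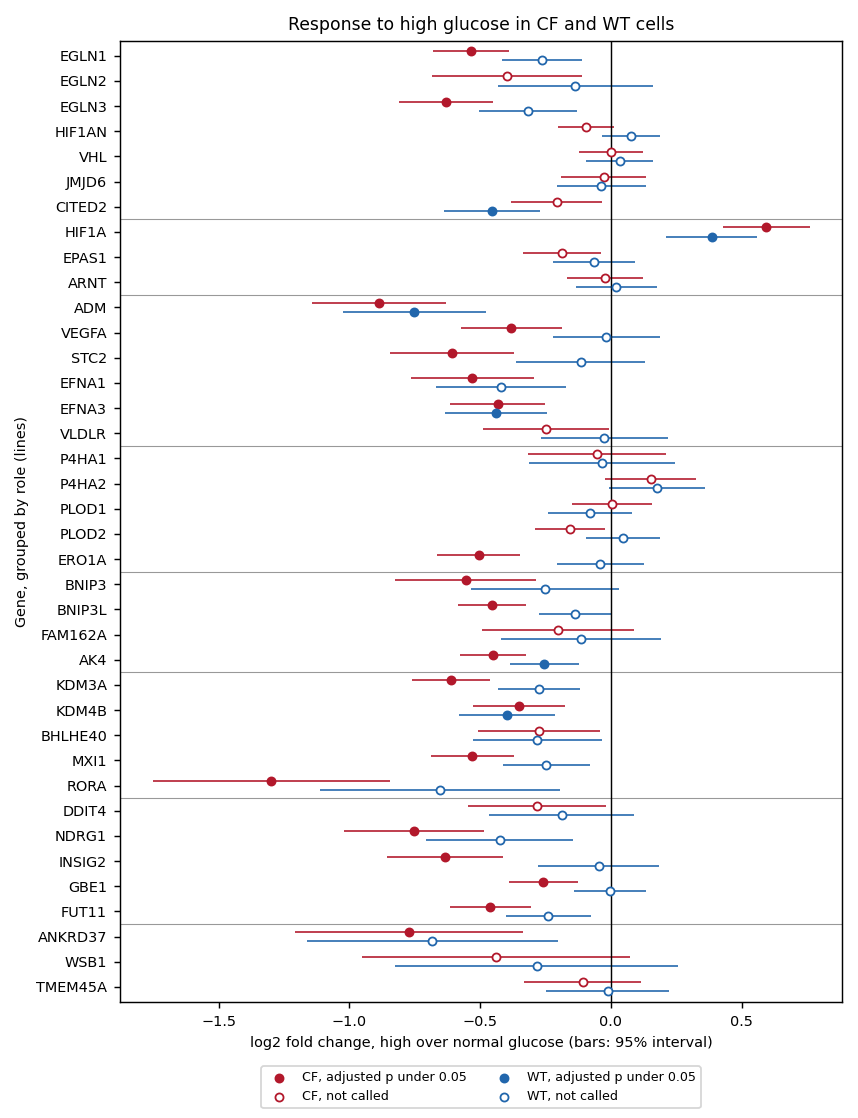
Log2 fold change of high over normal glucose in CF and in WT cells for 38 of the 40 genes, with bars of the 95% interval; filled points passed an adjusted p under 0.05. CA9 and CA12, with few counts, are left out. The CF points lie left of the WT points for most genes, and HIF1A is the 1 filled pair of points on the right.

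With the libraries numbered 1 to 3 alone, 19 of the 40 genes were called in CF cells, and with those numbered 4 to 6 alone 26 were, beside 8.44% and 13.8% of all genes, with a median log2 fold change of -0.39 and -0.38. ADM, EFNA1, BNIP3 and ANKRD37 were lower in both sets and did not pass in libraries 1 to 3 (adjusted p = 0.0569, 0.127, 0.0540 and 0.140). DDIT4 differed between the sets, with -0.03 in libraries 1 to 3 (adjusted p = 0.948) and -0.59 in libraries 4 to 6 (adjusted p = 3.23e-09). Its 3 libraries numbered 4 to 6 in CF cells in high glucose lay below the other 3.

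WT cells were tested in the same way. In high glucose 5 of the 40 genes fell, ADM, CITED2, EFNA3, KDM4B and AK4, and HIF1A rose, beside 2.96% of all genes called (1.47% lower and 1.49% higher). The median was -0.15, beside 0.000513 over all genes. The groups did not overlap for 4 genes that were lower and 2 that were higher, beside 2.12% and 1.98% of all genes. HIF1A had 120, 109, 132, 151 and 130 CPM in the 5 libraries of WT cells in high glucose, and 82.7, 102 and 107 CPM (lowest, median, highest) in WT cells in normal glucose. Every library in high glucose was above those in normal glucose, and HIF1A rose by 0.38 ± 0.09 (adjusted p = 0.0144). With limma on log2(FPKM + 1) without a filter its adjusted p was 0.0508.

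ADM had 39.8, 49.6, 36.4, 58.8 and 49.8 CPM in WT cells in high glucose and 65.4, 82.4 and 91.5 CPM in WT cells in normal glucose. The groups were apart, and the fall of 0.75 ± 0.14 (log2 fold change -0.75, adjusted p = 0.00289) stood beside one of 0.89 ± 0.13 (log2 fold change -0.89) in CF cells. In libraries 1 to 3 alone ADM was at -0.78 and EFNA3 at -0.38 in WT cells, and neither passed (adjusted p = 0.0563 and 0.0996). CITED2 had 77.0, 74.0, 75.2, 94.9 and 85.9 CPM in high glucose and 92.2, 107 and 138 CPM in normal glucose (-0.46 ± 0.09, adjusted p = 0.00613). Only library 4 in high glucose reached the range of normal glucose. EFNA3 had 16.8, 17.2, 13.9, 12.5 and 12.5 CPM in high glucose and 16.9, 19.4 and 23.7 CPM in normal glucose, with library 2 of high glucose inside the range of normal glucose (-0.44 ± 0.10, adjusted p = 0.0136).

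KDM4B had 45.6, 49.2, 45.9, 49.6 and 47.9 CPM in WT cells in high glucose and 58.7, 62.9 and 67.6 CPM in WT cells in normal glucose. Although the groups were apart, the call (-0.40 ± 0.09, adjusted p = 0.0174) ended without library 1 or 3 of high glucose or library 4 or 6 of normal glucose (adjusted p = 0.0612, 0.0712, 0.0538 and 0.0614). AK4 had 70.0, 82.9, 78.4, 66.1 and 82.3 CPM in high glucose and 86.8, 90.9 and 96.1 CPM in normal glucose. AK4 was lower by 0.25 ± 0.07 (log2 fold change -0.25, adjusted p = 0.0365) and its call ended without any 1 of library 1, 3 or 4 of high glucose or library 1, 2, 4, 5 or 6 of normal glucose (adjusted p = 0.0543 to 0.124). AK4 also has the pseudogene copies AK4P1 and AK4P3, with 1859 and 722 reads in all libraries beside 35626 for AK4, so its counts are uncertain to that degree. EGLN1 and EGLN3 had log2 differences of -0.26 ± 0.08 and -0.32 ± 0.10 in WT cells, with adjusted p of 0.0629 and 0.0683. Both passed with DESeq2 (adjusted p = 0.0206 and 0.0251), with library number as a block (0.00365 and 0.0142) and with a term for the sets of numbers (0.00272 and 0.0143). EFNA1 and KDM3A passed in the same settings. FUT11, MXI1 and ANKRD37 did not pass in the reported fit. They passed with the block (log2 fold change -0.22, -0.255 and -0.76, adjusted p = 0.013, 0.0213 and 0.0324) and with the term (adjusted p = 0.0104, 0.0421 and 0.0225). In the reported fit EGLN2, VHL, HIF1AN, EPAS1 and ARNT were between -0.14 and 0.08. EGLN1 had 77.2, 99.9, 97.9, 83.8 and 87.2 CPM in WT cells in high glucose and 99.0, 107 and 116 CPM in WT cells in normal glucose, so that 1 library of high glucose reached the range of normal glucose.

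The WT count depended on the libraries. Among libraries numbered 1 to 3 alone, 4 genes were called, beside 2.65% of all genes, and among those numbered 4 to 6 alone 16, beside 4.88%, with EGLN1, EGLN3, NDRG1, KDM3A, BNIP3 and EFNA1 among the genes that fell there (log2 fold change -0.30, -0.42, -0.61, -0.28, -0.41 and -0.58). The median of the 40 genes was -0.15 and -0.16 in the 2 sets. Leaving out 1 library at a time gave 4 to 9 genes called, a range given without shares over all genes that describes the members only. AK4, ADM, EFNA3 and KDM4B were called lower in both lines. They are 20% of the 20 genes lower in CF cells and 80.0% of the 5 lower in WT cells. These comparisons share no library. The overlap among all genes was not counted, so these shares describe the members only.

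**Figure D3:**
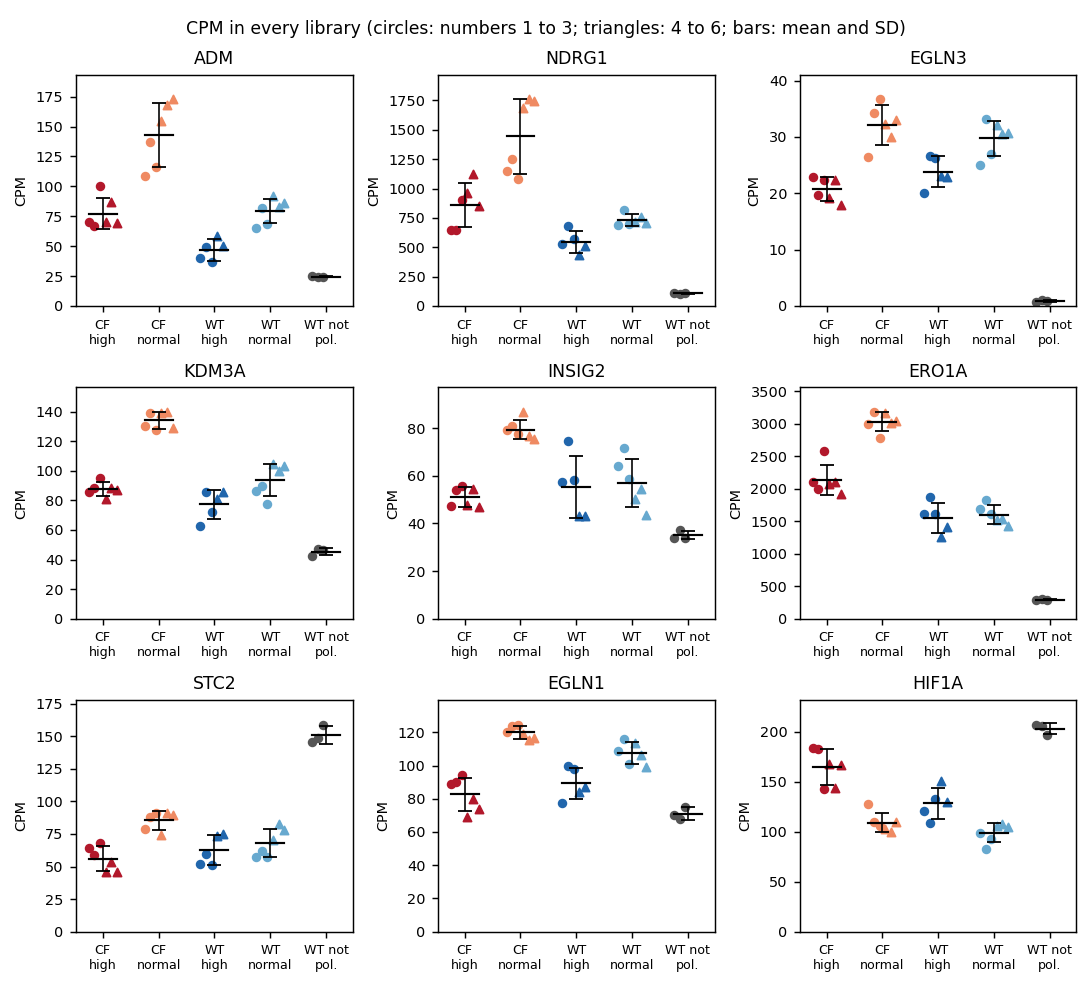
CPM of 9 members in every library, with circles for libraries numbered 1 to 3, triangles for 4 to 6, and bars for the mean and SD of each group. ERO1A is lower in CF cells in high than in normal glucose and nearly level in WT cells, HIF1A is higher in high glucose in both lines, and EGLN3 is near 0 in cells that were not polarized.

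The difference between these responses was tested as an interaction. None of the 40 genes passed in edgeR's quasi-likelihood test, beside 0.0367% of all genes (6 of 16338; 0.0122% higher and 0.0245% lower), while 13 of the 40 had an unadjusted p under 0.05, beside 6.79% of all genes. DESeq2 called 1, ERO1A, beside 0.41% of all genes, and limma on log2(FPKM + 1) called 0, beside 0.0233%. With library number as a block 3 passed, beside 0.447% of all genes, namely ERO1A (-0.44, adjusted p = 0.0219), VEGFA (-0.37, adjusted p = 0.0219) and INSIG2 (-0.55, adjusted p = 0.039). With the term for the sets of numbers the same 3 passed (adjusted p = 0.00615, 0.00803 and 0.0323) and so did BNIP3L (-0.30, adjusted p = 0.0402), beside 0.894% of all genes. The interaction was negative, meaning a more negative log2 fold change in CF cells, for 32 of the 40 genes, with a median of -0.16, beside -0.000751 over all genes. ERO1A had the smallest p. Its response was -0.51 ± 0.08 in CF cells and -0.04 ± 0.09 in WT cells, a difference of -0.46 ± 0.12 (adjusted p = 0.186; 95% interval -0.69 to -0.23). In WT cells ERO1A had 1611, 1868, 1619, 1265 and 1409 CPM in high glucose and 1424, 1574 and 1836 CPM in normal glucose, which overlap. Without library 3 of CF cells in high glucose, the highest of its group, ERO1A's difference was -0.54 with an adjusted p of 0.0496. INSIG2 followed with -0.63 in CF cells, -0.05 in WT cells and a difference of -0.59 ± 0.16 (adjusted p = 0.261). BNIP3L and KDM3A had differences of -0.32 ± 0.10 and -0.34 ± 0.11 (adjusted p = 0.321 and 0.378). For ADM, EFNA3 and KDM4B the difference was -0.13 ± 0.19, 0.01 ± 0.13 and 0.04 ± 0.13, with intervals of -0.50 to 0.24, -0.26 to 0.27 and -0.21 to 0.30. Within libraries 1 to 3 alone 0 of the 40 genes passed, beside 0.00626% of all genes, and within libraries 4 to 6 alone 9 did, beside 2.29%. The 8 that were negative there were STC2 (-0.79), VEGFA (-0.56), DDIT4 (-0.54), INSIG2 (-0.50), ADM (-0.48), ERO1A (-0.46), KDM3A (-0.39) and EGLN1 (-0.36), and CITED2 was positive (0.39). ADM and DDIT4 were positive, at 0.16 and 0.21, in libraries 1 to 3 and did not pass there (adjusted p = 0.891 and 0.829).

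The next comparison set CF cells against WT cells in normal glucose. There 21 of the 40 genes were higher and 3 lower in CF cells, while 24.4% of all genes were called (11.4% higher and 13% lower). The median log2 fold change was 0.29, beside 0.00401 over all genes. All 5 collagen and folding enzymes were higher, as were 5 of 5 regulators of growth and metabolism and 5 of 6 signals. BNIP3L, CA12 and CITED2 were lower. The groups did not overlap for 13 genes that were higher and 2 that were lower, beside 5.89% and 7.25% of all genes.

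NDRG1 had 1082, 1470 and 1760 CPM in CF cells in normal glucose and 688, 715 and 821 CPM in WT cells in normal glucose. Every CF library was above every WT library, with a log2 fold change of 0.98 ± 0.14 (adjusted p = 5.26e-06). ERO1A had 2781, 3034 and 3180 CPM in CF cells and 1424, 1574 and 1836 CPM in WT cells, also far apart (0.92 ± 0.08, adjusted p = 1.78e-09). ADM had 109, 146 and 173 CPM in CF cells and 65.4, 82.4 and 91.5 CPM in WT cells. Its groups did not overlap (0.85 ± 0.13, adjusted p = 1.96e-05).

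VEGFA had 182, 228 and 273 CPM in CF cells in normal glucose and 116, 139 and 154 CPM in WT cells in normal glucose, without overlap (0.73 ± 0.10, adjusted p = 2.81e-06). DDIT4 had 375, 450 and 463 CPM in CF cells and 207, 279 and 302 CPM in WT cells. For DDIT4, too, the lowest CF library was above the highest WT library (0.74 ± 0.14, adjusted p = 0.000186). EFNA1 had 648, 706 and 861 CPM in CF cells and 369, 432 and 553 CPM in WT cells, again apart (0.72 ± 0.12, adjusted p = 5.65e-05). ANKRD37 overlapped, with 16.6, 23.7 and 34.0 CPM in CF cells and 10.5, 12.9 and 18 CPM in WT cells (0.86 ± 0.22, adjusted p = 0.0054). UFSP2, the gene on the opposite strand that shares 35.2% of ANKRD37's exon bases and held 8967 reads against 5936 for ANKRD37, differed by 0.07 ± 0.10 (adjusted p = 0.674). The strand setting of the counts is not given in the sources used here. Reads of the pair therefore cannot be told apart where their exons overlap.

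BNIP3L went the other way, with 248, 258 and 270 CPM in CF cells in normal glucose and 356, 409 and 440 CPM in WT cells in normal glucose. The CF libraries were all below the WT libraries (-0.64 ± 0.07, adjusted p = 3.23e-08), whereas its relative BNIP3, also a receptor that directs mitochondria to autophagy, had 234, 245 and 291 CPM in CF cells and 192, 213 and 314 CPM in WT cells and did not pass (0.14 ± 0.14, adjusted p = 0.512). PNMA2, which lies on the opposite strand and shares 7.66% of BNIP3L's exon bases, differed by -0.15 ± 0.08 (adjusted p = 0.202). CITED2's call (-0.26 ± 0.09, adjusted p = 0.0312) ended without any 1 of library 1, 4, 5 or 6 of CF cells or library 4, 5 or 6 of WT cells (adjusted p = 0.0570 to 0.110), and its value was 0.03 in libraries 1 to 3 and -0.53 in libraries 4 to 6. STC2's call (0.33 ± 0.12, adjusted p = 0.0452) ended without any 1 of library 2, 3, 5 or 6 of CF cells or library 1, 2 or 3 of WT cells (adjusted p = 0.0666 to 0.0970), with library number as a block (0.0699) and in libraries 4 to 6 alone (0.14, adjusted p = 0.185).

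Of the HIF subunits, EPAS1 had 340, 363 and 395 CPM in CF cells in normal glucose and 208, 243 and 292 CPM in WT cells in normal glucose. It was higher in each CF library (0.57 ± 0.08, adjusted p = 1.94e-06). HIF1A and ARNT differed by 0.15 ± 0.08 and 0.04 ± 0.07, with adjusted p of 0.241 and 0.785. HIF1AN was slightly higher in CF cells, with 53.0, 57.3 and 62.0 CPM against 47.7, 49.2 and 56.9 CPM in WT cells (0.18 ± 0.05, adjusted p = 0.017); NDUFB8, opposite to it and sharing 2.33% of its exon bases, was higher too (0.46 ± 0.13). HIF1AN's call ended in libraries 4 to 6 alone (adjusted p = 0.118) and with no low-count filter (0.108). EGLN1, EGLN2, EGLN3 and VHL were between -0.11 and 0.18 and did not pass, although EGLN1 did with the block (0.16, adjusted p = 0.0354). The other members that were higher were GBE1 (0.59), P4HA1 (0.54), KDM3A (0.52), INSIG2 (0.48), MXI1 (0.46), PLOD1 (0.44), EFNA3 (0.40), P4HA2 (0.36), PLOD2 (0.30) and FUT11 (0.28). P4HA2 and PLOD1 were at 0.08 and 0.15 in libraries 1 to 3 alone and did not pass there (adjusted p = 0.458 and 0.0894).

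The carbonic anhydrases, which control pH at the cell surface, rested on few reads. CA9 had 8 to 21 reads per library in CF cells in normal glucose and 1 to 12 in WT cells in normal glucose, with a fitted log2 fold change of 1.66 ± 0.44 (adjusted p = 0.00603), which was 0.51 in libraries 1 to 3 (adjusted p = 0.511) and 2.86 in libraries 4 to 6. ARHGEF39 on the opposite strand shares 38.5% of CA9's exon bases, held 10490 reads against 237 for CA9, and was lower in CF cells (-0.37 ± 0.08). CA12 had 0 to 5 reads in CF cells and 6 to 26 in WT cells, without overlap, in normal glucose. In high glucose CA12 had 0 or 1 read in CF cells and 4 to 20 in WT cells. Between high and normal glucose in CF cells, CA12 had an adjusted p of 0.0548, and of 0.0463 with the block. Fitted folds at such counts depend on the prior count, so the size of CA9's fold is uncertain and none is given for CA12. CA9 is among the members counted as higher in CF cells at both glucose levels. Its call in high glucose ended in libraries 1 to 3 alone (log2 fold change 0.94, adjusted p = 0.258).

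**Figure D4:**
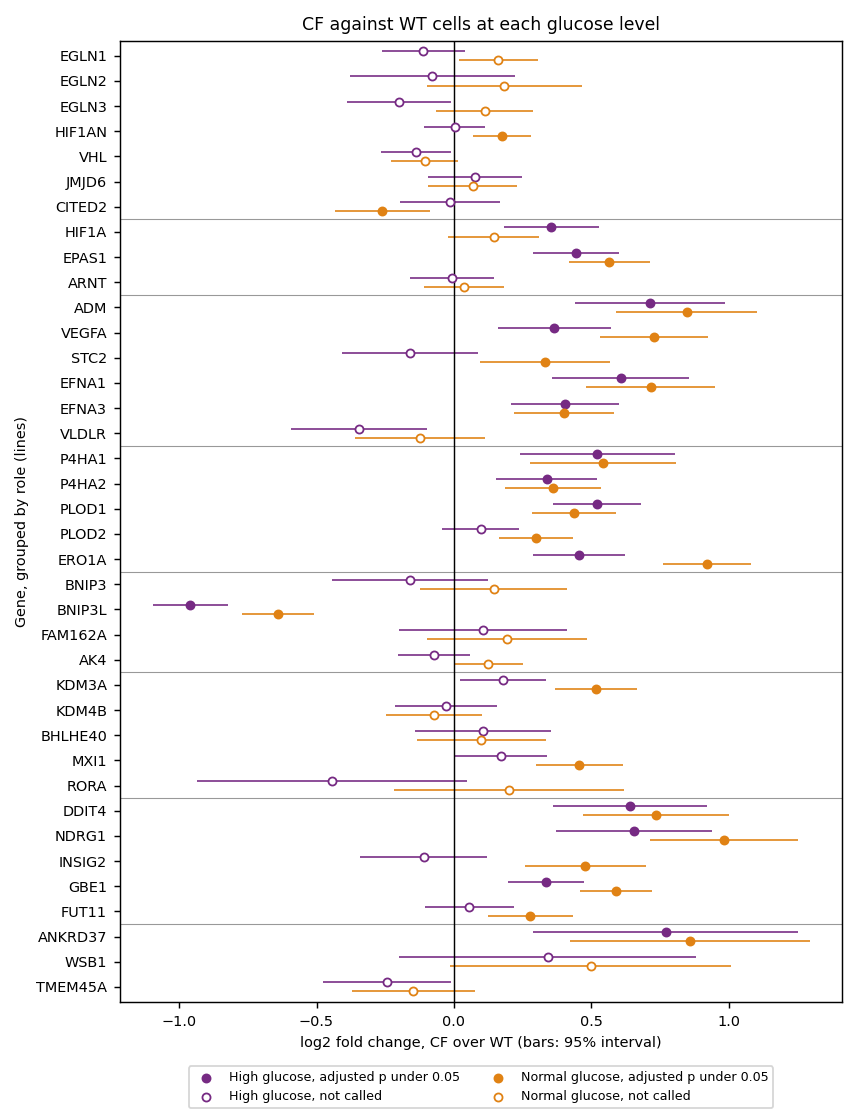
Log2 fold change of CF over WT cells at high and at normal glucose for 38 of the 40 genes, with bars of the 95% interval; filled points passed an adjusted p under 0.05, and CA9 and CA12 are left out. BNIP3L lies left of 0 at both glucose levels, and NDRG1, ERO1A, ANKRD37, ADM, DDIT4 and EFNA1 lie right of 0 at both.

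In high glucose, 15 of the 40 genes were higher and 2 lower in CF cells, beside 19.9% of all genes called (9.35% higher and 10.6% lower), and the median was 0.10, beside 0.00740 over all genes. The higher set shared 14 genes with that in normal glucose, which is 93.3% of it and 66.7% of the set in normal glucose. The comparisons share no library, but they compare the same lines. The overlap among all genes was not counted, so these shares describe the members only. The groups did not overlap for 9 genes that were higher and 2 that were lower, beside 6.72% and 7.34% of all genes. HIF1A was higher in CF cells at high glucose, with 143, 167 and 183 CPM against 120, 109, 132, 151 and 130 CPM in WT cells (0.35 ± 0.09, adjusted p = 0.00437). Its groups overlapped in library 4 of the WT cells, and in libraries 4 to 6 alone the difference was 0.16 and did not pass (adjusted p = 0.0892). EPAS1 was higher in every CF library, with 304, 319 and 333 CPM in CF cells and 209, 210, 232, 267 and 254 CPM in WT cells (0.44 ± 0.08, adjusted p = 0.000145).

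BNIP3L had 175, 184 and 216 CPM in CF cells in high glucose and 349, 422, 405, 326 and 330 CPM in WT cells in high glucose. It showed the largest difference of the members above 5 CPM, with all CF libraries below all WT libraries (-0.96 ± 0.07, adjusted p = 5.12e-11), and was at -1.02 in libraries 1 to 3 alone and -0.87 in libraries 4 to 6 alone; PNMA2 differed by -0.42 ± 0.08. ADM had 66.7, 70.1 and 99.9 CPM in CF cells and 39.8, 49.6, 36.4, 58.8 and 49.8 CPM in WT cells, without overlap (0.71 ± 0.14, adjusted p = 0.000439). PLOD1, a lysyl hydroxylase of collagen, had 361, 422 and 455 CPM in CF cells and 298, 302, 289, 276 and 274 CPM in WT cells. It was higher in each CF library (0.52 ± 0.08, adjusted p = 2.53e-05), as was P4HA1 with 672, 707 and 800 CPM in CF cells and 535, 647, 581, 362 and 386 CPM in WT cells (0.52 ± 0.14, adjusted p = 0.0097). The spread of P4HA1 in WT cells followed the library numbers, since libraries 4 and 5 held the values of 362 and 386 CPM, and the fold change was 0.30 in libraries 1 to 3 and 0.92 in libraries 4 to 6.

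NDRG1 had 646, 878 and 1128 CPM in CF cells in high glucose and 524, 685, 568, 435 and 508 CPM in WT cells in high glucose. Only library 2 of the WT cells reached the CF range (0.66 ± 0.14, adjusted p = 0.00153), and the difference was 0.31 in libraries 1 to 3 (adjusted p = 0.182) and 1.04 in libraries 4 to 6. DDIT4 had 280, 352 and 469 CPM in CF cells and 192, 241, 165, 279 and 278 CPM in WT cells. Its groups were just apart (0.64 ± 0.14, adjusted p = 0.00175), and here the larger difference lay in libraries 1 to 3, at 1.06, against 0.11 in libraries 4 to 6 (adjusted p = 0.281). EFNA1 had 420, 505 and 640 CPM in CF cells and 320, 443, 344, 267 and 277 CPM in WT cells, overlapping in library 2 of the WT cells (0.61 ± 0.13, adjusted p = 0.000856). ANKRD37 had 8.48, 13.1 and 21.2 CPM in CF cells and 7.09, 12.3, 6.96, 8.18 and 6.81 CPM in WT cells (0.77 ± 0.25, adjusted p = 0.0273). Its call ended without any 1 of several libraries, namely 1 or 3 of CF cells (adjusted p = 0.0700 and 0.0627) and 1, 3 or 5 of WT cells (0.0584, 0.0634 and 0.0503).

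ERO1A, EFNA3, VEGFA, P4HA2 and GBE1 were also higher in CF cells in high glucose, by 0.46, 0.40, 0.37, 0.34 and 0.33 on the log2 scale, and VEGFA's adjusted p of 0.0128 was 0.0534 without library 3 of WT cells. In libraries 1 to 3 alone EFNA3 and P4HA2 were at 0.23 and 0.18 and did not pass (adjusted p = 0.204 and 0.0575). Of the hydroxylases and their partners, EGLN1, EGLN2, EGLN3, VHL, HIF1AN and ARNT lay between -0.20 and 0.00 and did not pass. KDM3A (0.18 ± 0.08) and VLDLR (-0.35 ± 0.13) did not pass and did with the block for library number (adjusted p = 0.0446 and 0.0338). Within libraries 1 to 3 alone 21 genes were called, beside 19% of all genes, and within those numbered 4 to 6 alone 20 were, beside 27.9%. Between the sets 13 of the 40 genes had opposite signs, and 2 of them, STC2 and BHLHE40, were called in both. The share of all genes with opposite signs was not counted, here or in normal glucose, so these counts describe the members only. STC2 was 0.23 in libraries 1 to 3 (adjusted p = 0.0444) and -0.65 in libraries 4 to 6 (1.44e-06), and BHLHE40 was 0.44 and -0.30 (adjusted p of 7.86e-06 and 0.00126). TMEM45A (-0.47 and 0.14), RORA (-1.07 and 0.32) and INSIG2 (-0.27 and 0.19) were called in libraries 1 to 3 and not in 4 to 6, and PLOD2 (-0.06 and 0.31) and FAM162A (-0.00 and 0.39) in 4 to 6 and not in 1 to 3. In normal glucose the counts within the sets were 24 and 26, beside 22.8% and 30.3% of all genes. There 9 genes had opposite signs, with HIF1A (0.33 and -0.03), BHLHE40 (0.31 and -0.07), VHL (-0.24 and 0.03) and TMEM45A (-0.37 and 0.11) called in libraries 1 to 3, and BNIP3 (-0.05 and 0.38), CITED2 and RORA (-0.15 and 0.54) called in libraries 4 to 6.

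The last comparison set polarized WT cells against WT cells that were not polarized, both in normal glucose. Of 39 genes tested, 28 were higher and 7 lower in polarized cells, while 50% of the 16105 genes tested were called (26% higher and 24% lower). The median log2 fold change was 0.95, beside 0.0236 over all genes. All 5 collagen and folding enzymes, all 4 mitochondrial genes and all 5 chromatin and transcription regulators were higher. EGLN1, EGLN2 and EGLN3 were higher too. HIF1A, CITED2, VHL, VEGFA, STC2, VLDLR and CA12 were lower. The groups did not overlap for 27 higher and 7 lower genes, beside 22.4% and 24.2% of all genes.

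EGLN3 had 25, 30.6 and 33.2 CPM (lowest, median, highest) in polarized cells and 0.673, 1.02 and 0.929 CPM in the 3 libraries that were not polarized. Its 3 libraries that were not polarized held about 1 CPM, and it showed the largest difference of the members (5.10 ± 0.17, adjusted p = 4.33e-11). TMEM45A, a membrane protein of unclear function, had 301, 342 and 460 CPM in polarized cells and 15.7, 10.9 and 12.2 CPM in cells that were not polarized (4.81 ± 0.19, adjusted p = 3.99e-10). EGLN2 had 6.47, 9.38 and 11.3 CPM in polarized cells and 2.86, 1.71 and 2.29 CPM in cells that were not polarized, also without overlap (2.06 ± 0.21, adjusted p = 2.45e-06). EGLN1 was higher by a smaller step, with 99.0, 107 and 116 CPM in polarized cells and 70.2, 67.7 and 75.2 CPM in cells that were not polarized (0.61 ± 0.07, adjusted p = 8.59e-06).

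NDRG1 had 688, 715 and 821 CPM in polarized cells and 108, 103 and 107 CPM in cells that were not polarized (2.80 ± 0.08, adjusted p = 9.36e-12). ERO1A had 1424, 1574 and 1836 CPM in polarized cells and 283, 303 and 295 CPM in cells that were not polarized (2.47 ± 0.09, adjusted p = 7.38e-11). For both genes the lowest polarized library was several times the highest of the others. ANKRD37 had 10.5, 12.9 and 18 CPM in polarized cells and 1.96, 1.87 and 2.91 CPM in cells that were not polarized (2.58 ± 0.21, adjusted p = 2.73e-07), while its neighbour UFSP2 differed by -0.29 ± 0.12 (adjusted p = 0.0564). P4HA1, which hydroxylates prolines of collagen, had 393, 507 and 708 CPM in polarized cells and 121, 116 and 125 CPM in cells that were not polarized (2.11 ± 0.18, adjusted p = 6.83e-07). EFNA3 had 16.9, 19.4 and 23.7 CPM in polarized cells and 5.84, 4.98 and 4.28 CPM in cells that were not polarized, again apart (1.98 ± 0.13, adjusted p = 3.99e-08).

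HIF1A had 82.7, 102 and 107 CPM in polarized cells and 206, 205 and 197 CPM in cells that were not polarized. It was lower in each polarized library (-1.02 ± 0.08, adjusted p = 1.31e-07), opposite in direction to EGLN3, NDRG1 and ERO1A. EPAS1 overlapped, with 208, 243 and 292 CPM in polarized cells and 270, 275 and 275 CPM in cells that were not polarized (-0.14 ± 0.10, adjusted p = 0.26), but was called lower with library number as a block (-0.31, adjusted p = 0.000184) and against polarized libraries 1 to 3 alone (-0.32, adjusted p = 3.77e-05). Numbers 4 to 6 occur only among the polarized libraries, so in this comparison the block rests on libraries 1 to 3. The block and libraries 1 to 3 alone are therefore not separate tests, and 0 of 3 pairs with the same number correlated above 0.1. ARNT was higher (0.22 ± 0.08, adjusted p = 0.0348) and VHL lower (-0.20 ± 0.06, adjusted p = 0.0187), and both calls ended with library number as a block (adjusted p = 0.15 for ARNT and 0.0788 for VHL) and without some single libraries (for VHL 2 or 3 of the cells that were not polarized, for ARNT 4, 5 or 6 of the polarized and 1 or 2 of the other cells). HIF1AN did not pass (-0.18 ± 0.07, adjusted p = 0.0564), and passed with the block (-0.26, adjusted p = 0.00458).

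Among the signals, ADM was higher by 1.73 ± 0.11 and EFNA1 by 1.30 ± 0.11, whereas STC2 was lower by 1.13 ± 0.11 (log2 fold change -1.13) and VLDLR by 0.56 ± 0.10 (log2 fold change -0.56). VEGFA, a textbook HIF target, had 116, 139 and 154 CPM in polarized cells and 170, 164 and 162 CPM in cells that were not polarized (-0.26 ± 0.09, adjusted p = 0.0281). Its groups did not overlap, and its call ended without library 1 of the polarized cells or any 1 library of the cells that were not polarized (adjusted p = 0.0597, and 0.0604 to 0.0945). The remaining members that were higher lay between 0.53 (WSB1) and 1.52 (PLOD2), and WSB1's call ended without library 2 or 3 of the cells that were not polarized (adjusted p = 0.0554 and 0.0596). CA12 was lower, with 6 to 26 reads in polarized cells and 23 to 29 in cells that were not polarized, and its call (adjusted p = 0.0232) ended without any 1 of the 3 libraries that were not polarized (adjusted p = 0.0520 to 0.0711) and with the block (0.0680). CA9 had 0 reads in those 3 libraries and 1 to 12 in polarized cells, so it was at least 5.29-fold higher in polarized cells on a floor of 3 reads over the group, which covers counting error only. JMJD6 and GBE1 did not pass (-0.19 ± 0.09 and 0.10 ± 0.08), although JMJD6 did with the block (-0.31, adjusted p = 0.0049). Against the 3 polarized libraries numbered 1 to 3 alone, 36 genes were called, beside 58.2% of all genes. The summed endothelial markers and COL1A1 differed between these groups as given above, and their part in the result was not tested.

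**Figure D5:**
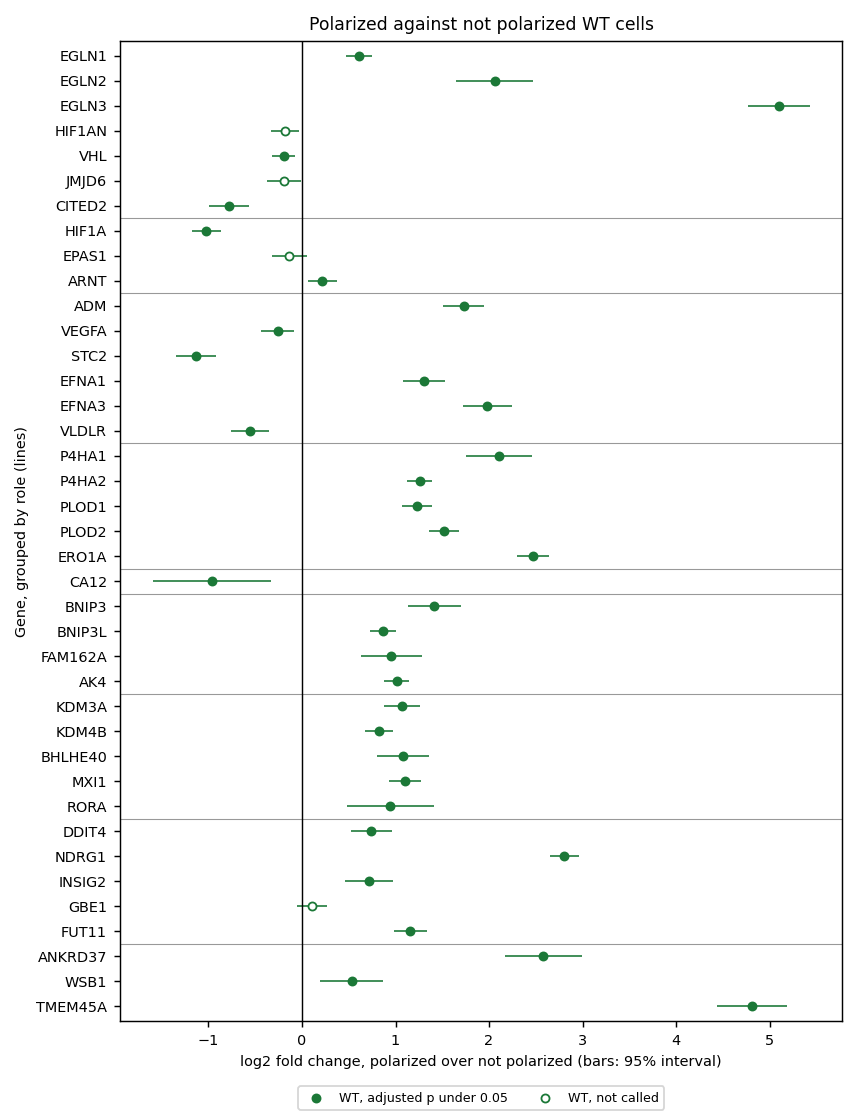
Log2 fold change of polarized over not polarized WT cells for 39 of the 40 genes, with bars of the 95% interval; filled points passed an adjusted p under 0.05, and CA9, with 0 reads in the cells that were not polarized, is left out. EGLN3 and TMEM45A lie furthest right, at 5.10 and 4.81, and STC2 and HIF1A furthest left, at -1.13 and -1.02.

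Another 69 genes of HIF biology were set beside these members, namely 17 of the HIF machinery, 22 glycolytic hypoxia targets and 30 further hypoxia targets, of which 65 passed the filter (FLT1, COX4I2, HIF3A and CXCR4 did not). In high glucose 21 of the 65 fell and 0 rose in CF cells, beside 4.14% lower and 4.27% higher of all genes. Among the 21 were 11 of 22 glycolytic genes. HK2, the inducible hexokinase, was the furthest, with 198, 226 and 293 CPM in CF cells in high glucose and 498, 676 and 864 CPM in CF cells in normal glucose (-1.54 ± 0.14), followed by HILPDA, a lipid droplet protein (-0.81), and the regulators of glycolytic flux PFKFB3 (-0.81) and PFKFB4 (-0.75). In WT cells 11 fell and 0 rose, beside 1.47% lower and 1.49% higher of all genes. Of the glycolytic genes 6 of 22 fell. The largest falls were in HK2 (-0.91), ANGPTL4, an inhibitor of lipoprotein lipase (-0.51), PFKFB4 (-0.48) and the glucose transporter SLC2A3 (-0.45). None of the 65 passed the interaction in edgeR's test, where 8 had an unadjusted p under 0.05, beside the 6.79% of all genes given above.

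In CF against WT cells in normal glucose, 22 of the 65 were higher and 3 lower, beside 11.4% and 13% of all genes. The placental growth factor PGF (2.16), HILPDA (1.36) and the aldolase ALDOC (0.98) were highest and LOXL2, a collagen cross-linking oxidase, lowest (-1.13). In high glucose 13 were higher and 5 lower, beside 9.35% and 10.6% of all genes. PGF was at 1.77, ALDOC at 1.00 and HILPDA at 0.87, and LOXL2 was again lowest. In polarized against not polarized WT cells 43 were higher and 6 lower, beside 26% and 24% of all genes. All 22 glycolytic genes were higher. ANGPTL4 (4.82), the growth factor binding protein IGFBP3 (4.56), PPFIA4 (3.64) and SLC2A3 (3.40) differed most. IGFBP3 alone had 8374, 8863 and 9794 CPM in polarized cells and 384, 387 and 395 CPM in cells that were not polarized.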

How the data were processed

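RNA of 26 libraries was analysed from a deposited table of raw counts per gene and from the authors' FPKM values, which scale counts to gene length and library total. The aligner HISAT2 and the build hg38 are named in the submitters' processing notes. For the counting tool and the strand setting, the sources used here give nothing. Per the labels' protocols, poly-T beads selected the messenger RNA; no molecular identifiers are mentioned.

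The 40 members and the lists set beside them were chosen with earlier results of these data known. The deposited counts were tested with edgeR 4.0.16 in R 4.3.3 (robust quasi-likelihood fits after TMM scaling and filterByExpr, with a minimum count of 10 and a minimum total of 15), with Benjamini-Hochberg adjustment over all genes tested. The 23 glucose libraries shared 1 fit of 4 group means, and the polarization comparison was fitted separately on 9 libraries. CPM use TMM factors over all 26 libraries. SE is the log2 fold change over the root of F, and 95% intervals assume a normal distribution. The rule for values per library took, per comparison, up to 8 called members with the largest absolute log2 fold change and a group mean of at least 5 CPM, plus the HIF subunits, VHL, HIF1AN and the 3 EGLN genes; other members with values were chosen after these were seen.

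Alternatives were DESeq2 1.42.0, RLE factors, no or a stricter low-count filter (5 libraries at a CPM of 1 or more, 3 for the polarization fit), limma 3.58.1 on log2(FPKM + 1) or log2(FPKM + 0.1) with and without a filter (FPKM of at least 0.5 in 3 libraries), other libraries in the fit, a block for library number, a term for the sets of libraries 1 to 3 and 4 to 6, either set alone, and each library left out. The scripts were tested on simulated counts with planted changes. Residuals of libraries with the same number correlated above 0.1 in 6 of 6 pairs for glucose in CF cells (mean r 0.31) and in 5 of 5 for CF against WT cells in high glucose (mean r 0.27), so the numbers met the criterion for pairs in these 2 comparisons. The reported fits carry no block; where the block changed a call in these 2 comparisons, its value stands beside the result. Other libraries of the same set correlated as much (mean r 0.29 and 0.27).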

Additional observations from a re-analysis of the deposited data

Results flagged for a closer look

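In 160 groups of values (40 genes in 4 groups of 5 or 6 libraries), 6 held 1 library far from the others by Dixon's criterion at 95%, which flags about 1 in 20 groups by chance. ERO1A, the disulfide-forming oxidase, had 2582 CPM in library 3 of CF cells in high glucose, against 1924 to 2110 CPM in the other 5. HIF1A had 127 CPM in library 1 of CF cells in normal glucose, against 99.7 to 109 CPM in the others. DDIT4, the mTORC1 inhibitor, had 375 CPM in the same library, against 438 to 463 CPM in the others. ANKRD37 had 12.3 CPM in library 2 of WT cells in high glucose, against 6.81 to 8.18 CPM in the others. FUT11 had 43.7 CPM in library 1 of WT cells in high glucose, against 51.7 to 54.1 CPM in the others. CA12 had 1.42 CPM in library 3 of WT cells in normal glucose, against 0.360 to 0.752 CPM in the others, which is 26 reads against 6 to 14. In each case the cause was not tested.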

How the results depend on the processing

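Across alternatives the count of members called in CF cells in response to glucose stayed between 18 and 26, that for CF against WT cells between 20 and 27 in normal and 15 and 21 in high glucose, and that for polarized against not polarized cells between 30 and 36. Leaving out 1 library at a time gave 20 to 23, 22 to 23, 15 to 18 and 30 to 36. The response of WT cells (6 members called) moved more, to 10 with DESeq2, 3 with limma on log2(FPKM + 1) without a filter, 4 in libraries 1 to 3 alone, 16 in libraries 4 to 6 alone and 13 with the term for the sets of numbers, and to 4 to 9 with 1 library left out. Of all genes, 2.65% were called in WT cells in libraries 1 to 3 alone and 4.88% in libraries 4 to 6 alone. The reported fit called 2.96% there. The interaction (0 called) gave 1 with DESeq2, 4 with the term for the sets and 9 in libraries 4 to 6 alone, beside 0.41%, 0.894% and 2.29% of all genes. It gave 0 to 1 with 1 library left out. With a replicate block for the library number the counts were 24 and 13 for glucose in CF and WT cells, 3 for the interaction (beside 0.447% of all genes), 25 and 19 for CF against WT cells in normal and high glucose and 35 for polarization. Counts in this paragraph without a share over all genes do not show a change particular to the members. Outside glucose in CF cells and CF against WT cells in high glucose, the pairs shared only a number. In WT cells 4 of 5 pairs correlated above 0.1, in normal glucose 5 of 6 and for polarization 0 of 3. The interaction has no fit with other libraries, and polarization none for libraries 4 to 6 alone or the term for the sets. In all, 3 reversals arose, all within 1 set of numbers. CITED2 in CF against WT cells in normal glucose was 0.0316 in libraries 1 to 3, STC2 in high glucose 0.23 in libraries 1 to 3, and BHLHE40 in high glucose -0.30 in libraries 4 to 6. The sets hold fewer libraries, and the cause was not tested further. Over single genes and settings, 5583 values kept their side of the threshold, 121 passed only under the alternative, 114 only in the reported fit and 3 reversed. Depth limits CA9 and CA12, with 237 reads for CA9 over all libraries.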
